A study of Arabidopsis thaliana with 72 samples.

Results

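Ribosomal proteins make up, with the ribosomal RNAs, the large and the small subunit of the cytosolic ribosome. The genes described here are 49 nuclear genes of *Arabidopsis* for such proteins, chosen by their locus identifiers among the 32833 genes of the expression table. No measured value enters the rule, although the list was drawn up with earlier results of these data known. They comprise 32 genes of the large and 17 genes of the small subunit from 24 protein families, and 49 of 49 passed the filter on low values described below. Families are called by their eukaryotic protein names (L3, S6 and so on), and genes by their RefSeq symbol or, where there is none, by their locus.

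In plants each ribosomal protein is encoded by a small family of paralogues, duplicated genes that are commonly expressed side by side, so a ribosome can be built from more than one version of most proteins. Ribosomal protein mRNAs are abundant where cells grow and divide, and the kinase TOR, acting through S6 kinase, which phosphorylates protein S6, is a known regulator of ribosome synthesis and translation in plants. Pseudouridine (Ψ) is an isomer of uridine that is made after transcription in rRNA, tRNA and also mRNA.

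The study mapped Ψ at single bases by BID-seq, in which bisulfite treatment leaves a deletion in the cDNA opposite Ψ, and compared the poly(A) RNA of 9 tissues of wild-type Col-0 plants, with no mutant and no treatment of the plants. Seedlings were 7 days old, shoots and roots were 14 days old and rosetta leaves (rosette leaves, spelled as in the labels) 30 days old, while cauline leaves, flowers, stems and siliques came from plants after flowering and seeds were mature and dried. Of 72 libraries, 56 were treated and 16 were input, with 6 and 2 of them from root, 7 and 2 from flower, 6 and 2 from silique, 5 and 2 from shoot, 7 and 1 from rosetta leaf, 7 and 2 from seedling, 7 and 2 from stem, 5 and 1 from seed, and 6 and 2 from cauline leaf. Expression was given as TPM, a transcript level scaled by length and by the total of a column, in 2 columns per tissue, except for rosetta leaf and seed with 1 column each, and Ψ as 1 pooled fraction per site and tissue.

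The labels do not say whether the columns of a tissue came from separate plants, so p-values measure only the spread between these columns, which may be technical. Within a tissue, the log2(TPM + 1) values of the 22381 genes tested correlated between the 2 columns with Pearson's r of 0.992 to 0.996 across genes, and the members' median gap was 0.02 to 0.06 on the log2 scale. The tissue labels were checked against marker genes. The summed flower markers stood at 693 TPM in flower and 256 TPM in silique, and the pollen markers at 1510 TPM and 98.5 TPM. The storage protein and oil body genes had 36260 TPM in seed and 16780 TPM in silique. In the root columns these genes differed, with 139.4 and 545.4 TPM. The photosynthesis genes had 20980 TPM in rosetta leaf, against 357 TPM in root and 325 TPM in seed. The root markers had 396 TPM in root and 194 TPM in seedling. In the contrast described below, 4 of the 5 root markers tested were higher in root and 1 was lower. The secondary wall markers had 1752 TPM in stem and 638 TPM in silique. Read depth is unknown for both measurements. In such bulk samples, fewer cells of a type and less RNA per cell cannot be told apart.

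The 49 genes together were most abundant in root and flower and least abundant in cauline leaf and seed. Their summed level was 24520 and 24980 TPM in root, 21290 and 21410 TPM in flower, 15930 and 15940 TPM in silique and 13380 and 13250 TPM in shoot. Rosetta leaf had 11930 TPM, seedling 10650 and 10680 TPM, stem 6892 and 6855 TPM, seed 5343 TPM and cauline leaf 5030 and 4909 TPM. Neighbouring tissues in this order did not overlap in their columns, although with 1 or 2 columns per tissue the spread is itself poorly known. As a share of all TPM the sum lay between 0.497% in cauline leaf and 2.48% in root. A further 179 genes of cytosolic ribosomal proteins, a list of the other members of these and the remaining families, stood in nearly the same order, from 65520 TPM in root and 59460 TPM in flower to 12380 TPM in cauline leaf and 12140 TPM in seed.

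The genes are highly expressed but not equally. The median of the members' mean TPM over the 9 tissues was 265.9, against 16.6 for the genes tested, 42 members reached a mean of 100 TPM, and 37 had at least 50 TPM in every tissue. The highest was AT5G20290, which encodes S8, with 1251 and 1384 TPM in root and 239 TPM in seed (mean 655 TPM). It was followed by SAC52 with a mean of 497.5 TPM, an L10 gene first known as a suppressor of the dwarf *acaulis* phenotype, and by RP1 with 475 TPM, an L3 gene whose protein lies close to the peptidyl transferase centre.

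The lowest 3 members were minor paralogues of highly expressed families. RPL10B, the smallest L10 paralogue, had 38.69 and 36.04 TPM in root, 36.7 and 32.2 TPM in flower, 4.76 and 5.56 TPM in cauline leaf and 2.02 TPM in seed (mean 19.6 TPM). RPL3B, the minor L3 paralogue, had 35.04 and 30.56 TPM in flower, 30.3 and 30.0 TPM in shoot, 21.8 and 20.4 TPM in root and 3.21 TPM in seed (mean 20.6 TPM). AT5G39850, the minor S9 paralogue, had 79.2 TPM in seed, 64.7 and 62.3 TPM in silique, 10.2 TPM in both cauline leaf columns and 7.45 TPM in rosetta leaf (mean 36.6 TPM). Of these, RPL3B was highest in flower and AT5G39850 in seed, so they departed from the common order.

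**Figure D1:**
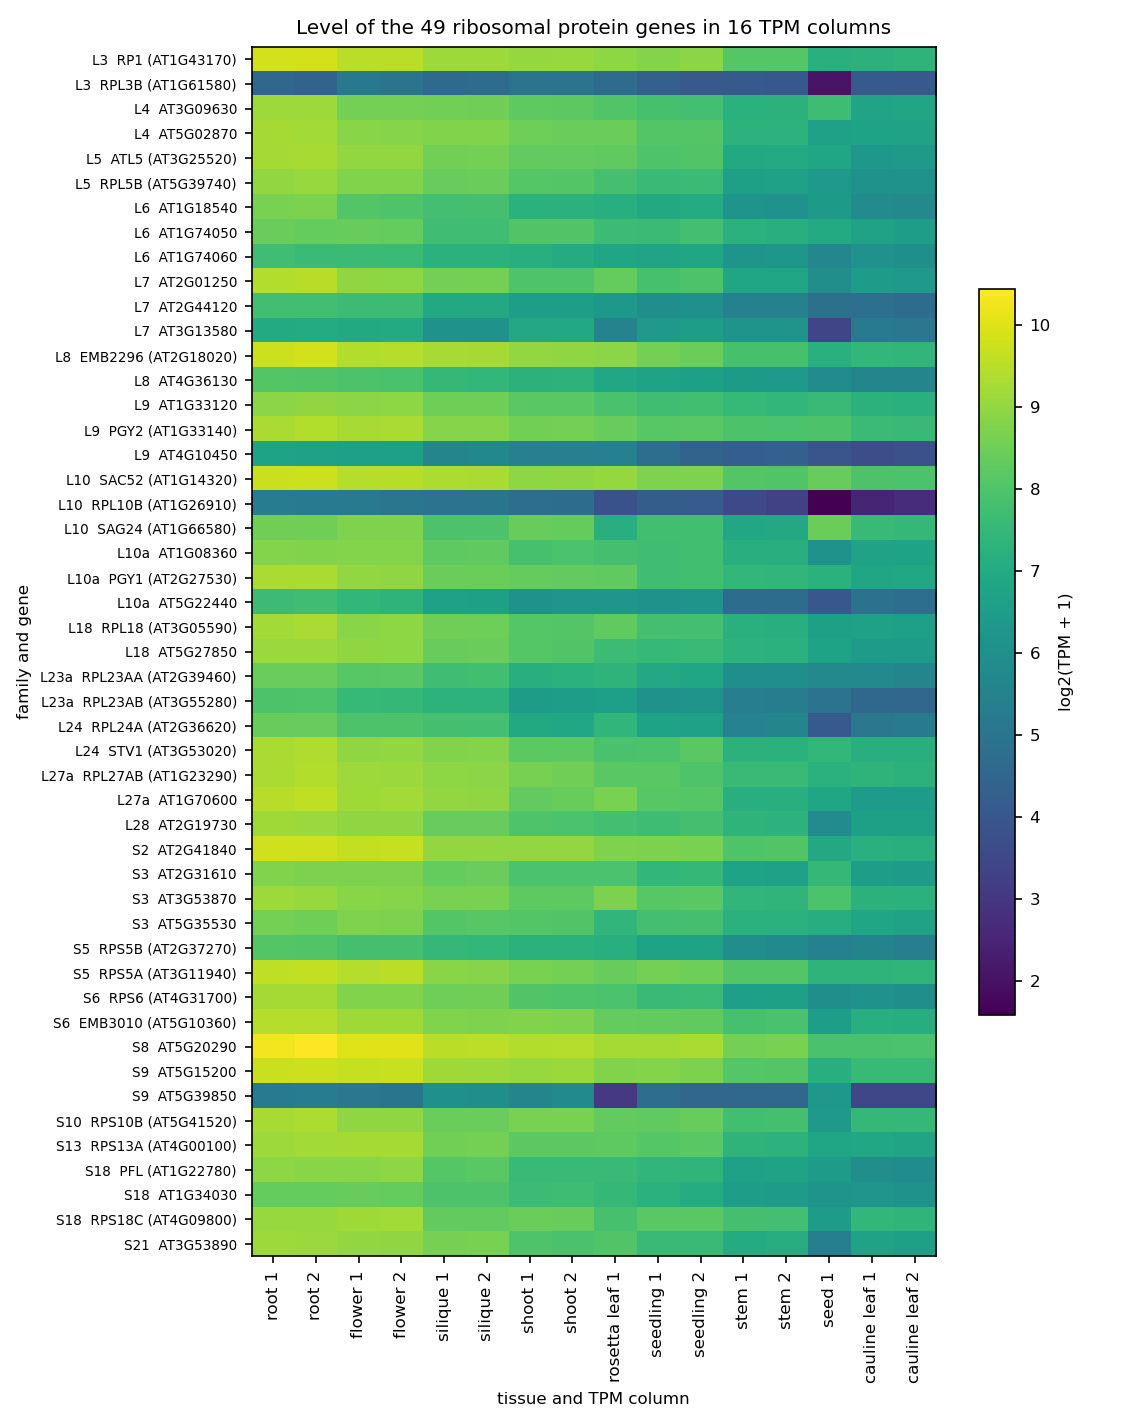
Level of each of the 49 genes (rows, ordered by family) as log2(TPM + 1) in the 16 TPM columns (2 per tissue, 1 for rosetta leaf and seed), on 1 colour scale. Columns of root and flower are brightest in most rows, and the minor paralogues RPL3B, RPL10B and AT5G39850 form dark rows, with RPL10B at 2.02 TPM in seed.

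Root was the tissue with the highest mean for 41 of the 49 genes, flower for 7 and seed for 1 (AT5G39850), whereas 26.2%, 11.5% and 15.6% of the genes tested were highest in these tissues. Cauline leaf was lowest for 24 members and seed for 23, against 7.82% and 44.4% of the genes tested, and stem and rosetta leaf were lowest for 1 member each. The ratio of the highest to the lowest tissue mean had a median of 6.32 in the members, between 3.26 for AT1G33120 (L9) and 20.4 for RPL24A (L24), and a median of 14.9 over all genes tested. Each root column lay above each cauline leaf column in 49 members (55.2% of the genes tested), above each shoot column in 47 (46.4%), above the seed column in 48 (64.9%) and above each flower column in 35 (47.9%). Seed lay above both cauline leaf columns in 23 members (32.2% of the genes tested).

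Each tissue was compared with the mean of the other 8 tissues by limma on log2(TPM + 1), with Benjamini-Hochberg adjustment over all 22381 genes and a call at an adjusted p under 0.05. Differences below are on this scale, which understates the change of low genes. An F test over the 9 tissues called 49 of 49 members, and with 99.4% of all genes called it sets no gene apart. The 9 contrasts share their columns and are not independent of each other. Calls were frequent among all genes, so the members' counts are given beside the share of all genes called in the same direction, and beside a stricter count that also asks for a 2-fold difference.

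In root, 49 of 49 members were called higher than the mean of the other tissues, as were 53.5% of all genes, and 42 members were at least 2-fold higher, against 27.2% of all genes. The median difference was 1.34, against 0.27 over all genes tested. The largest was that of RPL24A, the lesser of the 2 L24 genes, with 328.7 and 335.7 TPM in root and 16.3, 112 and 249.6 TPM as the lowest, median and highest of the other 14 columns. Its difference was 1.92 ± 0.04 (SE, adjusted p = 5.1e-13). AT5G22440 (L10a) had 199.8 and 208.9 TPM in root, against 14.9, 69.96 and 175.0 TPM in the other columns (difference 1.91 ± 0.04, adjusted p = 2.0e-13), and RPL23AB (L23a, at the exit of the peptide tunnel) had 251.0 and 257.0 TPM, against 21.7, 79.5 and 181.3 TPM (1.88 ± 0.03, adjusted p = 6.3e-14). For these 3 genes no other column reached the root columns, and the nearest were those of flower.

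In flower, 49 of 49 members were higher (50.1% of all genes), 32 of them at least 2-fold (17.1%), with a median of 1.13 against 0.18 over all genes tested. Here AT4G10450 (L9) had 95.5 and 94.3 TPM, against 11.9, 34.6 and 104.5 TPM in the other columns (difference 1.61 ± 0.07 SE, adjusted p = 1.3e-09). AT5G22440 had 175.0 and 161.7 TPM in flower (1.60 ± 0.04, adjusted p = 3.5e-12) and AT2G44120 (L7) 201.0 and 200.4 TPM, against 25.5, 71.4 and 215.8 TPM (1.57 ± 0.03, adjusted p = 3.1e-13). Root columns exceeded the flower columns in all 3 genes.

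Silique and shoot were higher by less. In silique 48 members were called higher (44.7% of all genes) and 5 at least 2-fold (16.7%), with a median of 0.66 against 0.08, led by RPL24A with 228 and 219 TPM (1.28 ± 0.04), AT5G39850 with 64.7 and 62.3 TPM (1.24 ± 0.06) and RPL10B with 30.31 and 32.01 TPM (1.15 ± 0.07; adjusted p = 5.7e-11, 8.8e-10 and 1.5e-08). In shoot 47 members were called higher, at a background of 55.3% of all genes, with 1 at least 2-fold (13.2%), but the median of 0.33 was close to that of all genes tested, 0.25. After scaling the columns by their median ratio, 18 members were called higher and 19 lower in shoot, so the members had no stable direction there, and without the seed column the median was 0.18. Scaling and leaving out seed act on all genes, so this change is not read as particular to the members. The largest shoot differences were those of AT3G13580 (L7) with 119.6 and 123.6 TPM, against 9.75, 71.0 and 129.7 TPM in the other columns (1.08 ± 0.04), of AT5G39850 (0.91 ± 0.06) and of RPL10B (0.89 ± 0.07, and 0.56 without seed), with adjusted p of 4.7e-10, 2.0e-08 and 2.1e-07.

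Rosetta leaf and seedling stood near the middle, and their counts depended on the seed column. Seed was low for genes in general (median −0.88 over all genes tested), so leaving it out shifts these contrasts for genes in general, as scaling does. Such shifts are therefore not read as particular to the members. In rosetta leaf, 29 members were higher (23.4% of all genes) and 9 lower (58.9%), with a median of 0.16 against −0.43, and without the seed column the counts were 16 and 21 and the median −0.03. Median-ratio scaling gave a median of 0.50, with 3 members lower. At least 2-fold lower was 1 member (22.1%). RPL24A (169.4 TPM, 0.83 ± 0.06), AT2G01250 of L7 (321.7 TPM, 0.57 ± 0.04) and AT1G70600 of L27a (400.6 TPM, 0.57 ± 0.04) had the largest positive differences, with adjusted p of 6.3e-08, 1.4e-07 and 8.7e-08. Without seed, that of RPL24A was 0.48 and that of AT2G01250 0.32. AT5G39850, at 7.45 TPM in rosetta leaf against 10.2, 32.9 and 79.2 TPM in the other 15 columns, fell furthest (−2.06 ± 0.08, adjusted p = 1.9e-10) and lay below each of them. SAG24 (L10), first listed as a senescence-associated gene, had 140.7 TPM, against 118.7, 251 and 426 TPM (−0.89 ± 0.04, adjusted p = 4.4e-10), and AT3G13580 had 46.1 TPM (−0.48 ± 0.06, adjusted p = 1.0e-05, with −0.85 without seed and −0.14 with median-ratio scaling).

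In seedling 14 members were higher (43.2% of all genes) and 23 lower (30.4%), with a median of −0.07 against 0.08. Without seed 1 was higher and 42 lower, with a median of −0.22, a shift again not read as particular to the members. AT3G13580 had 81.5 and 92.2 TPM (0.53 ± 0.04, adjusted p = 2.8e-07, and 0.18 without seed), and RPL10B with 17.3 and 17.1 TPM (0.23 ± 0.07, adjusted p = 0.01) and RP1 with 445 and 480 TPM (0.22 ± 0.03, adjusted p = 3.0e-05) were called higher only with seed among the other tissues. Lower were AT4G10450 with 26.6 and 20.1 TPM (−0.63 ± 0.07), PGY1 (L10a) with 210 and 214 TPM (−0.38 ± 0.02) and PGY2 (L9) with 279.6 and 288.5 TPM (−0.34 ± 0.03), with adjusted p of 9.2e-06, 2.2e-08 and 8.9e-07. PGY1 and PGY2 were named *piggyback* for leaf patterning phenotypes of their mutants.

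Stem, seed and cauline leaf were the tissues with low levels. In stem 48 members were lower (44.6% of all genes), 14 of them at least 2-fold (12.5%), with a median of −0.81 against −0.09. AT5G22440 had 25.4 TPM in both stem columns, against 14.9, 73.7 and 208.9 TPM in the other columns (−1.42 ± 0.04), RPL24A had 44.5 and 49.3 TPM (−1.23 ± 0.04) and AT2G31610, an S3 gene, 105 and 100.5 TPM (−1.19 ± 0.03), with adjusted p of 1.0e-11, 9.4e-11 and 7.8e-12. Protein S3 lies where the mRNA enters the small subunit. The 1 member called higher in stem (36.7% of all genes) was AT3G13580, with 71.7 and 70.3 TPM in stem (0.21 ± 0.04, adjusted p = 0.0006), a direction that turned without the seed column (−0.15).

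In cauline leaf 49 members were lower (46.3% of all genes), 41 of them at least 2-fold (14.8%), with a median of −1.37 against −0.12. RPL23AB had 22.7 and 21.7 TPM there, against 30.5, 93.5 and 257 TPM in the other 14 columns (−2.01 ± 0.03, adjusted p = 1.9e-13). AT1G70600 had 86.7 and 89.2 TPM, against 111.6, 366.5 and 760.3 TPM (−1.88 ± 0.03, adjusted p = 1.7e-13), and ATL5, a gene of L5, the protein that binds 5S rRNA, had 78.5 and 83.0 TPM, against 109.4, 319.7 and 614.9 TPM (−1.80 ± 0.03, adjusted p = 8.2e-14). These 3 genes were below every other column in cauline leaf, with seed nearest.

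In seed 47 members were lower, where 65.5% of all genes were called lower, and 36 at least 2-fold (46.8%). The median was −1.42, against −0.88 over all genes tested, so the seed column was low for genes in general. With median-ratio scaling the members' median was −0.92, against −0.58 over all genes. RPL24A fell to 16.3 TPM in seed, against 33.2, 122.8 and 335.7 TPM in the other 15 columns (−2.88 ± 0.06, adjusted p = 1.7e-13), AT3G13580 to 9.75 TPM, against 33.97, 81.5 and 129.7 TPM (−2.87 ± 0.06, adjusted p = 1.9e-13), and RPL10B to 2.02 TPM, against 4.76, 25.6 and 38.7 TPM (−2.69 ± 0.09, adjusted p = 3.7e-11). The seed column lay below every other column for these genes. The 2 members called higher in seed (25.0% of all genes) were AT5G39850, with 79.2 TPM against 7.45, 31.7 and 64.7 TPM (1.59 ± 0.08, adjusted p = 6.6e-10), and SAG24, with 349.5 TPM against 118.7, 248.7 and 426.2 TPM (0.58 ± 0.04, adjusted p = 8.2e-09). AT5G39850, the 1 member at least 2-fold higher (13.3% of all genes), exceeded every other column, whereas SAG24 was lower in seed than in flower and root. With 1 seed column these values have no replicate of their own and borrow the spread of the other tissues.

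**Figure D2:**
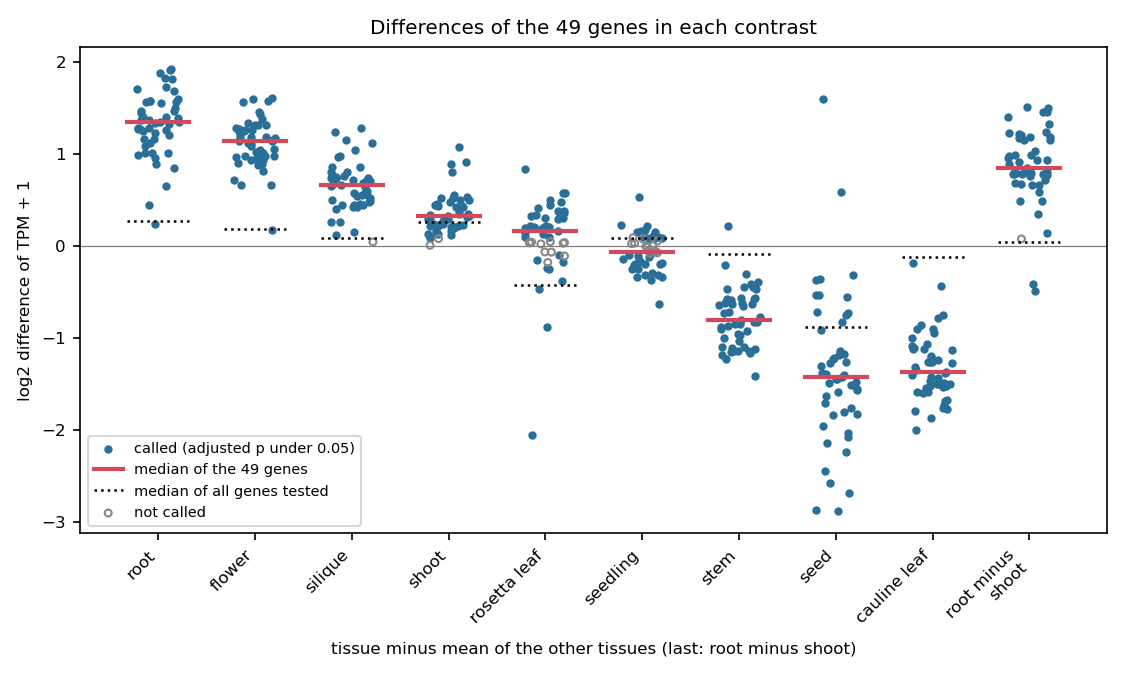
Difference of each of the 49 genes (points) on the log2(TPM + 1) scale between a tissue and the mean of the other tissues, and, last, between root and shoot. Filled points were called at an adjusted p under 0.05, red bars mark the members' median and dotted lines the median of all genes tested. The members' median lies furthest above that of all genes in root (1.34 against 0.27) and furthest below it in cauline leaf (−1.37 against −0.12).

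Root and shoot, which were taken from plants of the same age on the same medium, were also compared directly. In root 46 members were higher than in shoot (42.0% of all genes) and 16 at least 2-fold (21.3%), with a median of 0.84 against 0.04 over all genes tested. AT5G22440 had 199.8 and 208.9 TPM in root, against 69.7 and 72.5 TPM in shoot (1.51 ± 0.05), RPL23AB 251.0 and 257.0 TPM against 87.9 and 91.4 TPM (1.49 ± 0.04), and AT2G01250 683.0 and 714.0 TPM against 256.3 and 252.7 TPM (1.45 ± 0.04), with adjusted p of 3.5e-11, 1.0e-11 and 1.0e-11. Lower in root were 2 members (37.8% of all genes), both minor paralogues. RPL3B had 21.8 and 20.4 TPM in root, against 30.3 and 30.0 TPM in shoot (−0.49 ± 0.09, adjusted p = 0.00025), and AT5G39850 had 37.7 and 39.3 TPM, against 49.2 and 54.3 TPM (−0.42 ± 0.07, adjusted p = 0.0002). AT5G39850 also turned direction among contrasts, with the highest value in seed and the lowest in rosetta leaf.

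The medians of the 2 subunits were close in the contrasts with the largest differences. In root the 32 large-subunit genes had a median of 1.38 and the 17 small-subunit genes of 1.27, in flower 1.11 and 1.14, in cauline leaf −1.40 and −1.27, in seed −1.44 and −1.41, and in root against shoot 0.92 and 0.78. The other cytosolic ribosomal protein genes, of which 171 of 179 were tested, gave similar counts. Of these, 166 were higher and 2 lower in root (median 1.38), 170 were higher in flower (1.25), 167 were lower and 2 higher in cauline leaf (−1.35), and 155 were lower and 8 higher in seed (−1.49). Among all genes tested, 53.5% were higher in root and 50.1% in flower. In cauline leaf 46.3% were lower, and in seed 65.5% were lower and 25.0% higher. An exception was the acidic stalk protein gene AT3G28500 (P2), with 426 and 431 TPM in flower, 221 and 224 TPM in silique, 126 and 131 TPM in stem and 3.58 and 4.02 TPM in root. It was higher in stem (3.17 ± 0.12 SE) and in cauline leaf (2.08 ± 0.12). AT2G45710, an S27 gene, had its highest level in seed, 55.8 TPM (1.31 ± 0.09).

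Genes that serve ribosome synthesis and translation did not all move with the ribosomal proteins. Of 16 genes of ribosome biogenesis and TOR signalling, 11 were higher and 3 lower in root (median 0.63, against 0.27 over all genes tested, of which 53.5% were higher). In cauline leaf 10 were lower and 4 higher (median −0.59, against −0.12, with 46.3% of all genes lower). In seed 11 were higher and 4 lower (median 0.46, against −0.88, with 25.0% of all genes higher), while 47 of the 49 members were lower. In seed the nucleolin gene NUC-L2 (AT3G18610), whose protein acts in the nucleolus on ribosomal RNA genes, was higher (2.71 ± 0.16 SE). S6K2 (AT3G08720), which encodes an S6 kinase, was higher in seed too (1.98 ± 0.06) and in root (2.82 ± 0.05), and the other S6 kinase gene, PK1 (AT3G08730), was lower in both (−1.32 ± 0.05 and −0.27 ± 0.04). Of 9 genes of translation elongation, 8 were higher in root (median 0.80), and 9 were lower in cauline leaf (−0.71) and in seed (−0.95, close to the −0.88 of all genes tested). The shares of all genes were 53.5% higher in root, 46.3% lower in cauline leaf and 65.5% lower in seed.

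Within a family, the share of each paralogue in the family's summed TPM was computed per column, where it does not depend on how columns were scaled. These shares are a description, with no test, and TPM is a level per transcript length. The 6 families in which the share of 1 paralogue had the widest range over the 9 tissues are given with all their genes. Seed was an end of the range in all 6, so the ranges of all 24 families were recomputed without it, a choice made after seeing the data. The widest without seed were L27a, where AT1G70600 took 58.4% in rosetta leaf and 35.8% in cauline leaf (22.6 points), and L7, where AT2G01250 took 67.9% in rosetta leaf and 45.6% in stem (22.3 points), followed by L24 and L10. S21, S2, L4 and S9 then ranked 7, 11, 16 and 17 of 24. The largest gap between the 2 columns of a tissue was 3.80 percentage points in the 6 families.

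S21, a small-subunit protein, had the widest range over the 9 tissues. The member AT3G53890 took 17.3% of the family's TPM in seed (42.0 TPM) and 54.6% in silique (396 and 402 TPM), and its paralogue AT5G27700 the remainder. The range was 37.2 points, and 18.8 points without seed. S9, which sits near the mRNA entry and affects decoding accuracy, followed. AT5G39850 took 36.1% in seed, 10.0% in silique, 8.72% in shoot and 1.70% in rosetta leaf, and AT5G15200 the rest. This range of 34.4 points fell by most when seed was left out, to 8.33 points. In L24, STV1 took 91.4% in seed, 80.1% in cauline leaf and 58.3% in rosetta leaf, and RPL24A the rest (33.1 points, and 21.8 without seed). STV1, named *short valve1* for its gynoecium, supports reinitiation of translation after upstream open reading frames.

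In L10, a protein that joins the large subunit late in its assembly, SAC52 took most in each tissue except seed. SAG24 had 51.4% in seed, against 48.3% for SAC52 and 0.30% for RPL10B, while in rosetta leaf SAG24 had 20.9%, SAC52 77.2% and RPL10B 1.94%. The range of SAG24 was 30.5 points, and 21.6 without seed. In L4, which lines the exit tunnel, AT3G09630 took 67.3% in seed and between 43.0% (rosetta leaf) and 51.7% (cauline leaf) elsewhere, AT5G02870 being the other gene (24.3 points, and 8.69 without seed). In S2, AT2G41840 took 23.4% in seed and 52.2% in flower (28.8 points, and 12.97 without seed). The other S2 genes AT1G58684, AT1G58983 and AT1G59359 have identical coding sequences and took 21.5%, 22.6% and 21.6% in seed, XW6 is 97.5% identical to them, and AT3G57490 took at most 4.502%. Reads of such copies can be split among them in counting, so their single levels are uncertain, while AT2G41840 (83.8% identical) is more distinct.

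The log2 ratio of a pair of paralogues varied little between columns of a tissue in 3 pairs of these families, as the pooled SD shows. For SAC52 over SAG24 the SD was 0.03 and the ratio lay between −0.09 in seed and 1.89 in rosetta leaf. For AT5G15200 over AT5G39850 the SD was 0.06 and the range 0.82 in seed to 5.85 in rosetta leaf, and for STV1 over RPL24A the SD was 0.10 and the range 0.49 in rosetta leaf to 3.42 in seed. Of the other families, L5 and L3 had narrow ranges of shares. The share of ATL5 in L5 ranged over 4.65 points, and RP1 held 90.8% to 97.9% of L3. RPS5A, the S5 gene known for its activity in dividing cells, held 70.1% to 82.0% of S5, and EMB3010 held 53.5% to 71.0% of S6. S5 and S6 were wider, at 11.9 and 17.5 points, and ranked 17 and 13 of 24. Without seed they ranked 14 and 9, both above L4 and S9, with S6 also above S2. AT1G33120 and PGY2 of L9 are 99.1% identical in coding sequence, and their levels are uncertain for the same reason as in S2.

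**Figure D3:**
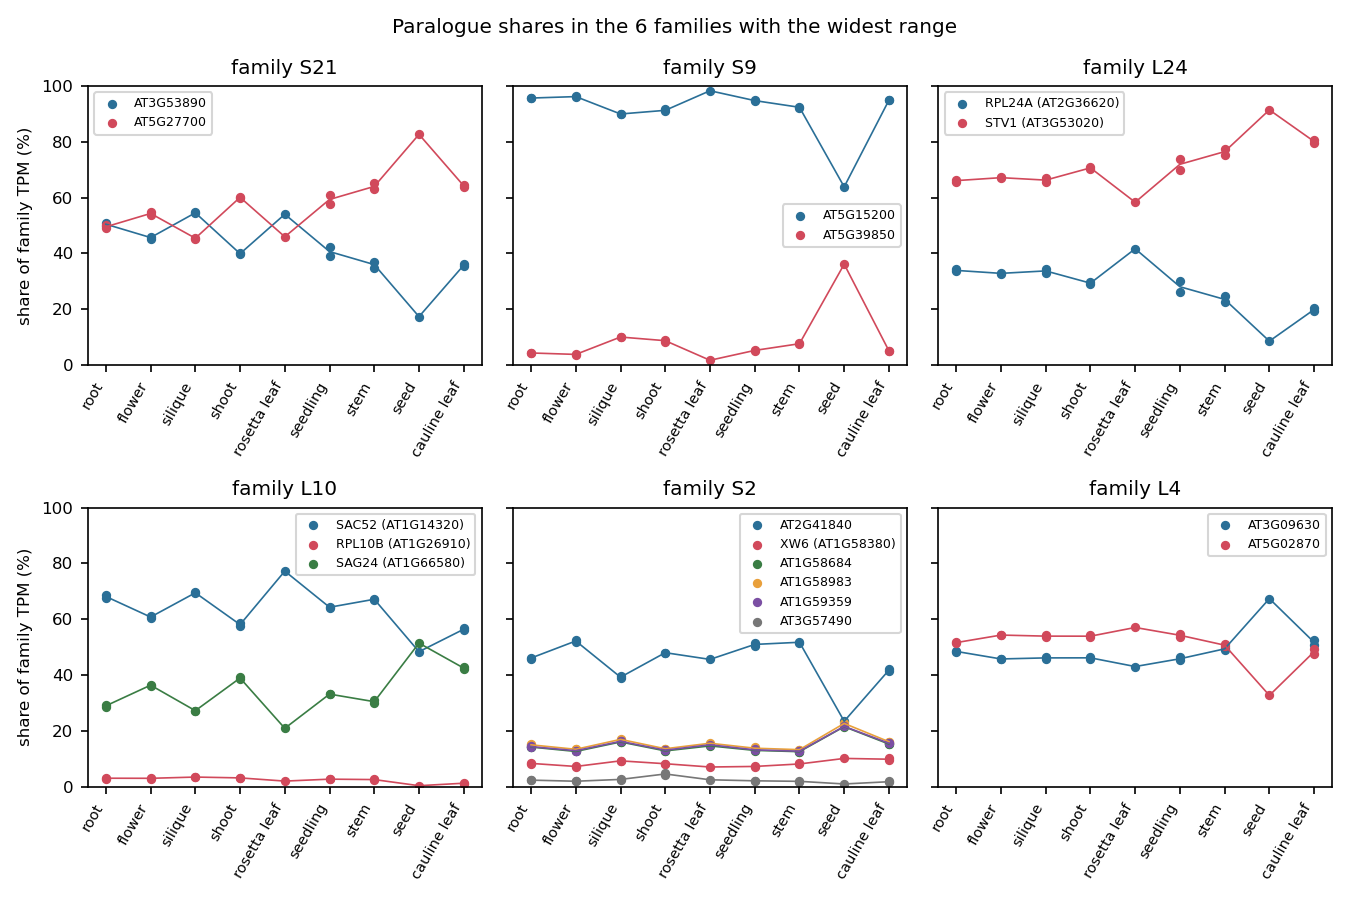
Share of each gene in the summed TPM of its family (in percent, linear axis from 0 to 100) in the 6 families with the widest range when seed is included. Points are TPM columns and lines join tissue means. The paralogues of S21, S9, L24, L10, S2 and L4 reach an extreme in seed, such as 36.1% for AT5G39850 in S9.

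The table of Ψ sites placed 66 sites inside the 49 genes on their strand, and 64 of them passed the authors' filter in at least 1 tissue, here termed called. They lay in 33 members, with 6 sites each in AT2G41840 and RPS10B (S10), 4 in RPL5B, 3 in each of 5 genes, 2 in each of 8 and 1 in each of 17, and 16 members had none. No error between libraries can be given for a pooled fraction, so all site values are descriptions without a test. A called site was found in 67.3% of the members, in 53.1% of the other cytosolic ribosomal protein genes and in 16.4% of all genes of the table. Site calls need reads, and among genes of at least 100 TPM the share was 73.8% in the members and 66.2% in all genes, so abundant genes in general had such sites.

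The 6 sites called in most tissues are shown first, since they are among the members' most widely detected positions. The sixth place was tied at 5 tissues between AT1G33120 and a site in AT2G41840, shown further on, and went to the higher mean fraction. Each window has 21 bases of the transcribed strand in DNA letters (RefSeq, TAIR10.1), with the T read as Ψ in capitals. SAG24 lies at chr1:24840459-24840479 (+, 3′ UTR), AT3G53890 at chr3:19955609-19955629 (−), RPS6 at chr4:15347070-15347090 (−), AT5G15200 at chr5:4935932-4935952 (−), AT3G53870 at chr3:19951751-19951771 (+) and AT1G33120 at chr1:12011626-12011646 (+), the last 5 in coding sequence.
SAG24: gatttgtggtTgtagaaccga
AT3G53890: gtggacaggcTctggcagaag
RPS6: aagcaaggttTcccaatgaag
AT5G15200: aagcgtgagcTctggagagtg
AT3G53870: aggttagggtTactcctatga
AT1G33120: ggtcgtgcgcTctgatcaacc

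The SAG24 site was the only member site called in all 9 tissues. Its Ψ fraction, the estimated share of molecules with Ψ, was 0.228 in root, 0.265 in flower, 0.218 in silique, 0.236 in shoot, 0.244 in rosetta leaf, 0.248 in seedling, 0.240 in stem, 0.249 in seed and 0.212 in cauline leaf. These values spanned little, while the gene's level ranged from 119.9 TPM in stem to 425.7 TPM in flower. AT3G53890 was called in 8 tissues at 0.0945 to 0.157, the exception being seed. RPS6 was called in 7 tissues at 0.317 to 0.440, AT5G15200 in 7 at 0.0763 to 0.121, AT3G53870 (S3) in 7 at 0.0391 to 0.0934 and AT1G33120 in 5 at 0.0974 to 0.146. The bases cTctg stood at the site in 5 of the 64 called sites (7.81%), 12.9% of all called sites and 0.339% of the 17113 T positions in the members' exons.

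**Figure D4:**
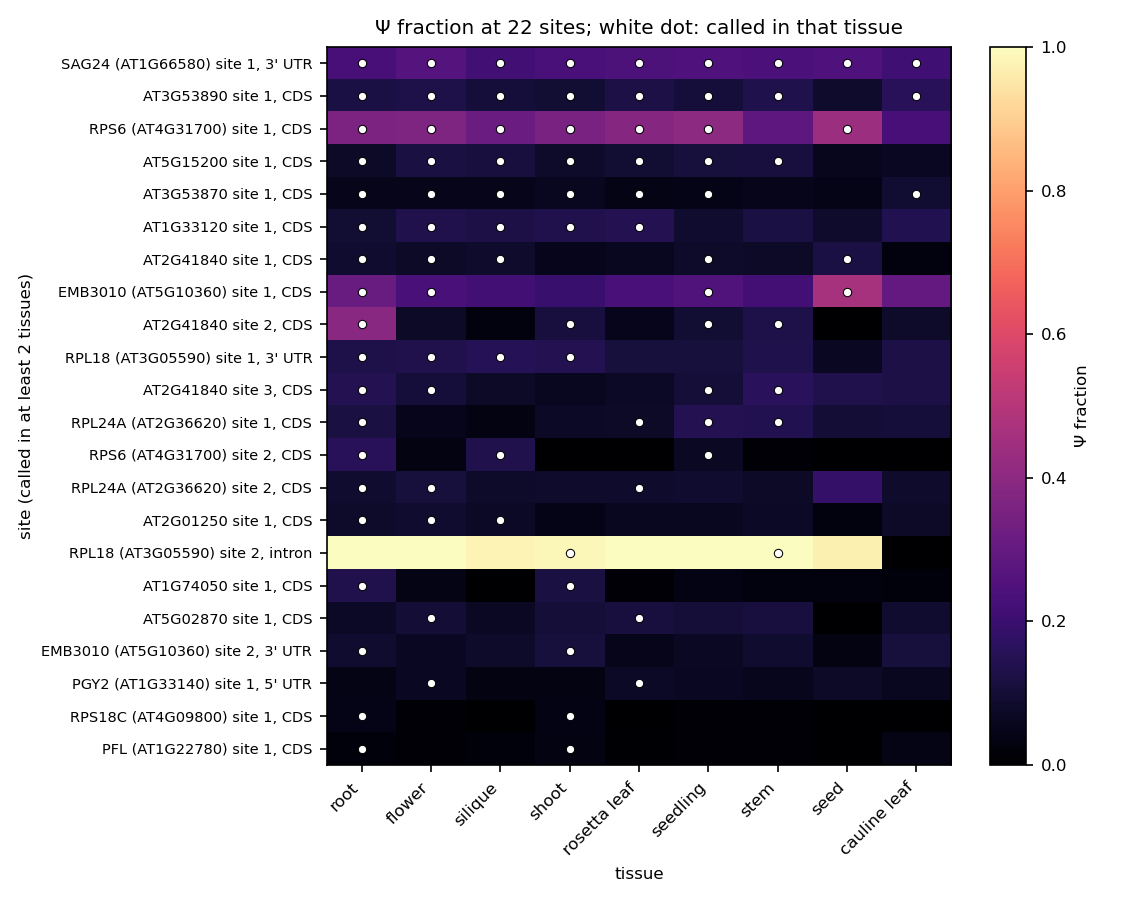
Ψ fraction (colour, 0 to 1) at the 22 sites called in at least 2 tissues (rows) in the 9 tissues, with a white dot where the site was called. SAG24 carries a dot in all 9 tissues, the RPS6 and EMB3010 sites reach 0.440 and 0.461 in seed, and the intron site of RPL18 is near 1 wherever it is not 0.

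Within coding sequence, paralogues seldom shared a listed site. Sites outside it were not aligned, although 5′ UTR windows of AT1G33120 and PGY2 shown further on are identical. Those of ATL5 and RPL5B at an acceptor also share the bases from the site onward. Of the positions in coding sequence that could be aligned, 3 pairs were listed in both genes, each with the same 7 bases. RPS6 (chr4:15347070-15347090) and EMB3010 (chr5:3259476-3259496), both on the minus strand, encode S6 and carried the site in the middle base of a TTC codon at base 182 of both coding sequences.
RPS6: aagcaaggttTcccaatgaag
EMB3010: aagcaaggttTcccaatgaaa

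At this S6 site the fraction was 0.360, 0.364, 0.317, 0.357, 0.386, 0.400 and 0.440 in root, flower, silique, shoot, rosetta leaf, seedling and seed for RPS6, each a tissue where it was called. EMB3010 was called in 4 tissues, with 0.315 in root, 0.235 in flower, 0.254 in seedling and 0.461 in seed, the highest fraction at any called exonic site of the members. Both genes had their highest called value in seed, where their levels were low (63.0 TPM for RPS6 and 90.3 TPM for EMB3010). RPS6 had the higher value in root, flower and seedling and EMB3010 in seed, and no error is known for either.

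The other pairs were AT1G33120 with PGY2 and AT2G41840 with AT1G58684. For the first, the windows gaggttcgtgTacgcccattt at chr1:12011270-12011290 and chr1:12023644-12023664 (both +) are identical, were called in root alone with fractions of 0.168 and 0.173, and cannot be told apart by reads within the shared sequence. The S2 site in AT2G41840 (tcctagaggtTctggtattgt, chr2:17460803-17460823, −) was called in 5 tissues at 0.0758 to 0.122. In 103 other combinations of a site and a paralogue, the paralogue was not listed, although 78 of them had a T at the aligned position and 21 the same 7 bases. These combinations include paralogues with hardly any expression, such as AT3G51190 with at most 0.244% of the TPM of L8. They also count the identical S2 copies separately. Not listed does not mean unmodified, since the table holds only sites that the authors kept. The AT1G58684 site lies in a coding sequence identical to those of AT1G58983 and AT1G59359, so reads within it cannot assign the site to 1 of them. Among the 64 called sites, 5 have 31 surrounding bases found more than once in the genome.

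Most sites were called in few tissues, and among these root was the most frequent. Of the 64 sites, 42 were called in 1 tissue (65.6%, against 59.6% of all called sites), 34 of them in root, so that 53.1% of the members' sites were called in root alone, against 13.99% of all called sites. In root 53 sites in 28 members were called, against 16 in flower, 13 in shoot, 12 each in silique, rosetta leaf and seedling, 7 in stem and 4 each in seed and cauline leaf. The members supplied 1.95% of all sites called in root and 0.250% to 0.723% in the other tissues. Root is also the tissue with the members' highest levels, as given above, and with the most called sites in all (2712). The part of expression and read depth in this count was not tested.

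The sites called in root alone lay in 20 members, and their fraction in root was between 0.0224 and 0.810 with a median of 0.0692. Of the 34, 30 had a value above 0 in flower, so that not called did not mean no signal. RPS10B is an example, with its 6 sites called in root alone at 0.0277 to 0.174. At chr5:16610246-16610266 (−) the RPS10B site gatttcaactTaccacaacat had 0.174 in root and 0 in flower. At a site in AT2G41840 called in 4 tissues (cccgacccagTggttgaagac, chr2:17460025-17460045, −), the fraction was 0.394 in root, against 0.130 in stem, 0.115 in shoot and 0.0976 in seedling.

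By position, 50 of the 64 called sites lay in coding sequence (78.1%), 6 in the 3′ UTR, 3 in the 5′ UTR and 5 in introns. The paper reports enrichment in coding sequence for mRNA Ψ sites in general, so this share is not read as particular to the members. In coding sequence 29 of 50 fell on the third codon base (58.0%), where 45.1% of the T in the members' coding sequences lie, 14 on the middle base (35.6% of T) and 7 on the first (19.2%). Fractions were under 0.2 in every tissue where the site was called at 54 of 64 sites (84.4%, against 55.3% of all called sites). This comparison and those that follow were not matched for expression, whose part in the fractions of called sites was not tested. The members' median fraction was 0.0877 in root, against 0.159 for all sites called there, and was below that of all sites in flower, silique, shoot, rosetta leaf, seedling and stem too. It was higher in seed (0.344 against 0.198) and cauline leaf (0.185 against 0.171), each with 4 sites. Fractions of at least 0.5 occurred at 5 sites (7.81%), against 15.4% of all called sites.

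These 5 were the 5 intron sites, each 2 to 4 bases from an exon end, 3 beside an acceptor and 2 beside a donor. The highest fraction at a called exonic site of the members was 0.461, and 1 of 59 exonic sites lay within 5 bases of an exon end. The windows are shown because they cross or touch a splice junction. They lie at chr3:9270468-9270488 (−) for ATL5, chr5:15904254-15904274 (+) for RPL5B, chr5:4936037-4936057 (−) for AT5G15200, chr3:1622520-1622540 (+) for RPL18 and chr2:16475723-16475743 (+) for RPL23AA, the first 3 at an acceptor.
ATL5: tttgttgaacTagcttactgt
RPL5B: tttgtcatgcTagcttactgt
AT5G15200: tgttgttgaaTagatggaaag
RPL18: gaacacggtaTttctcttatc
RPL23AA: actcatcaggTactttaaaga

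RPL18 had a fraction of 0.970 to 1 in 8 tissues and 0 in cauline leaf, and was called in stem and shoot. ATL5 had 0.849 to 0.979 in the 9 tissues and was called in cauline leaf alone at 0.926. RPL5B, the paralogue of ATL5, was called in silique at 0.786, AT5G15200 in root at 0.810 and RPL23AA in flower at 0.501. In the whole table, 309 of 1155 called sites with a fraction of at least 0.5 (26.8%) lay outside exons and within 5 bases of an exon end, against 85 of 6910 lower sites (1.23%). The part of read alignment at junctions in these values was not tested.

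**Figure D5:**
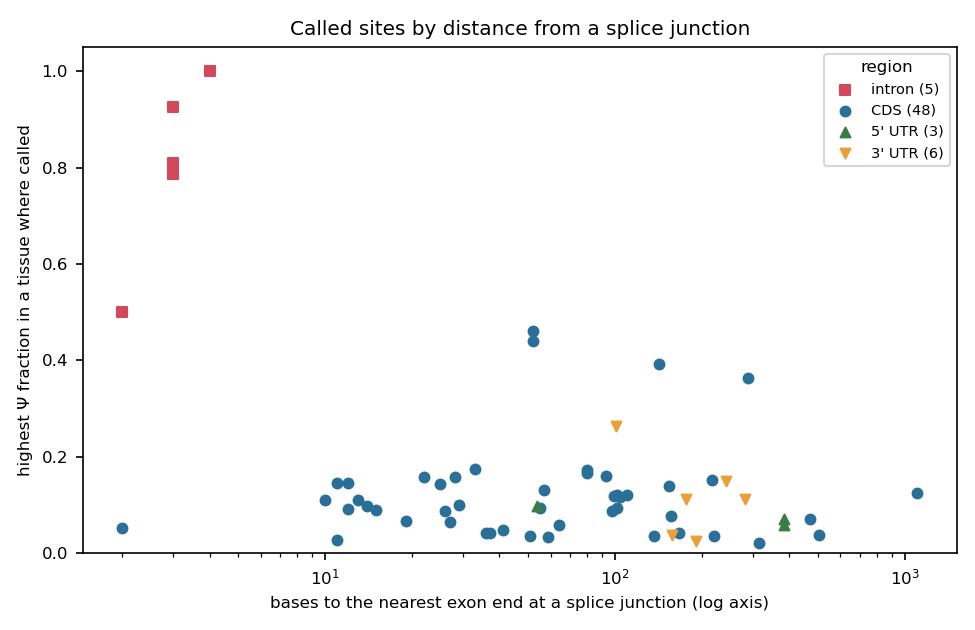
Highest Ψ fraction in a tissue where the site was called (linear axis from 0) against the number of bases to the nearest exon end at a splice junction (log axis), for the called sites of genes with introns. The 5 intron sites sit 2 to 4 bases from a junction at 0.501 to 1, and the exonic sites at 0.461 or less.

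A further group shares its sequence with a reagent. The 7 bases agaTcgg occurred at 4 called sites of the members, in the 5′ UTR of AT1G33120, PGY2 and AT2G31610 and in the coding sequence of AT1G08360 (L10a), and at 9 of 17113 T positions in the members' exons. They equal the first 7 bases of the 3′ adapter sequence given in the library protocol, and a site in RPL24A shares gaTcgg with them. The windows that follow show the match, at chr1:12010967-12010987 for AT1G33120, chr1:12023341-12023361 for PGY2, chr2:13450349-13450369 for AT2G31610 and chr1:2636736-2636756 for AT1G08360, all on the plus strand, and chr2:15351248-15351268 (−) for RPL24A.
AT1G33120: aaaacaaagaTcggagaagat
PGY2: aaaacaaagaTcggagaagat
AT2G31610: gtttcagagaTcggctgattt
AT1G08360: gagctccagaTcggtctgaag
RPL24A: atttatccgaTcggactctca

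The called fractions at the 4 sites were 0.0587 for AT1G33120, 0.0661 and 0.0723 for PGY2, 0.0973 for AT2G31610 and 0.0882 for AT1G08360, and the RPL24A site was called in 4 tissues at 0.0760 to 0.146. The AT1G33120 and PGY2 windows are identical, so reads within them cannot be told apart and these sites may not be separate. Of all called sites, 130 (1.57%) read agaTcgg, the rank of this sequence being 7 among all 7-base sequences of called sites. The part of the adapter in these calls was not tested.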

How the data were processed

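The authors deposited TPM per gene in 16 columns of 9 tissues, and the tool and annotation behind them are not given in the sources used here. The columns name tissue and replicate but not whether the library was input or treated, and their number equals that of the input libraries in each tissue. The authors deposited the Ψ fraction per site and tissue, from combined libraries mapped to TAIR10 with gap rates calibrated to fractions, with a flag for sites that passed their filter.

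Genes with a mean of at least 1 TPM over the tissues (22381) were fitted on log2(TPM + 1) with limma 3.58.1 (R 4.3.3), moderated with a trend, two-sided. All tissues shared 1 spread, and rosetta leaf and seed have 1 column each. The 2-fold count was added after seeing the data. Members and gene lists were chosen with earlier results of these data known. Named genes are the 3 highest and lowest members by mean TPM, the 3 largest called differences per direction and contrast, the 6 families with the widest share range, the 6 sites called in most tissues and sites aligned in paralogues. RPS10B and the sites at junctions, in AT2G41840 (root) and at adapter-like bases were chosen after their values were seen, as were the genes named from other lists and the further families named with their shares. Sites were placed on RefSeq TAIR10.1, whose bases matched at 8275 of 8275 nuclear sites, and coding sequences were aligned with Biopython 1.88. The fit was also run on simulated data with independent columns and few changed genes. That setting is unlike these data, and no statement here rests on it. Alternatives were median-ratio scaling, other pseudocounts and filters, a replicate block, tissues or columns left out (families also ranked without seed, chosen after seeing the data), and stricter site rules.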

Additional observations from a re-analysis of the deposited data

How the results depend on the processing

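Of 1514 values recomputed for 69 results, 1473 kept their direction and side of the threshold or stayed within 1.5 times. This total is no measure of stability, since most values came from leaving out 1 column, and a count of 0 in both fits was taken as kept. Leaving out seed entered both as a tissue and as a single column, which is the same fit for expression. Median-ratio scaling shifted columns by −0.49 (seed) and −0.34 (rosetta leaf) to 0.27 (shoot) on the log2 scale, with 3 members lower in rosetta leaf, 5 higher in seed, 6 higher in seedling, and 18 higher and 19 lower in shoot. The members' medians were then 1.12 in root, 0.98 in flower, −0.92 in seed and −1.39 in cauline leaf. Without seed, 16 members were higher and 21 lower in rosetta leaf, 1 higher and 42 lower in seedling, 30 higher in shoot, 1 lower in silique and 0 higher in stem, RPL10B in seedling (−0.11) and AT3G13580 in stem (−0.15, up to 0.23 with another column left out) turned direction, and RP1 in seedling (0.01) was no longer called. With single columns left out, the counts ranged from 16 to 29 (higher) and 8 to 21 (lower) in rosetta leaf, 1 to 16 and 19 to 42 in seedling, 30 to 48 higher in shoot, 0 to 1 lower in silique and 0 to 1 higher in stem, the low or high end being that without seed. Without seedling replicate 2, 9 members were higher in seedling, and RPL10B was not called there without either seedling replicate (0.22 and 0.24). Share ranges lay between 18.8 and 37.4 points in S21, 8.33 and 34.4 in S9, 21.8 and 33.1 in L24, 21.6 and 30.5 in L10, 12.97 and 29.1 in S2 and 8.69 and 24.3 in L4, again lowest without seed. Called sites numbered 33 with a minimum fraction of 0.1 and 22 when called in at least 2 tissues. The cause of these shifts was not tested. The expression counts and medians of this paragraph are for the members alone, without the share of all genes called under the same setting. Scaling and leaving out columns act on all genes, so these changes are not read as particular to the members. Depth is unknown and limits which sites could be called.

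The replicate numbers gave no sign of a strong effect shared by same-numbered columns. Their deviations correlated between −0.09 and 0.12 over 21 pairs of tissues, with 2 over 0.1. Whether same-numbered columns were prepared together is not known. With the number as a replicate block, 28 members were higher and 10 lower in rosetta leaf and 13 higher in seedling, and the other counts were as without the block, at 49 higher in root and in flower, 49 lower in cauline leaf and 46 higher in root than in shoot.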
